A study of Mus musculus with 14 samples.

Results

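Interferon-stimulated genes are the transcripts that cells raise after an interferon binds its receptor. A list of 38 such mouse genes was followed here, out of 48795 genes in the count table. They were chosen by name, with earlier results of these data known. All 38 had enough counts to be tested, and they lie on 15 chromosomes. They were measured by RNA sequencing in fibroblast cultures that grew out of pieces of lung or of dorsal skin, and the question was how their RNA differs with the loss of Rel and between the tissues of origin. The product of Rel is c-Rel, an NF-kappaB subunit that binds DNA and is best known from lymphocytes.

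The donors were male mice of 8 to 10 weeks, either C57BL/6J wild type or Rel -/-, for which the labels also give the strain C57BL/6J. All cultures were harvested at 14 days, unstimulated, on plastic, and no interferon was added to any of them. The groups were wild-type lung with 5 libraries (numbered 1, 3, 4, 5 and 23), Rel-null lung with 4 (7 to 10), wild-type skin with 2 (11 and 22) and Rel-null skin with 3 (18 to 20). The labels do not say whether the libraries of a group came from separate animals, so each p-value measures the spread between these libraries, which may be technical.

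Interferons are secreted proteins that warn neighbouring cells of infection. The type I receptor, made of Ifnar1 and Ifnar2, activates the kinases Jak1 and Tyk2, which phosphorylate STAT proteins such as Stat2. Stat2 and Irf9 are parts of ISGF3, a complex that binds the interferon-stimulated response element (ISRE) in promoters, whereas interferon gamma acts largely through GAS elements. Fibroblasts respond to interferon and keep a low level of many of these genes without it.

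Several libraries stood apart before any comparison. The smallest library, wild-type skin 22, held 2663437 counts, and the other 13 held 12780350 to 30987933. Rel itself, as a count scaled to its library's total (CPM), ran from 1.10 to 17.3 CPM in wild-type lung, from 0.0651 to 4.06 CPM in Rel-null lung, where 3 of the 4 libraries lay above wild-type lung 4, and from 10.9 to 11.5 CPM in wild-type skin. In Rel-null skin it stood at 0.0349 CPM in library 18 but at 9.42 and 9.47 CPM in the libraries labelled Rel-null skin 19 and 20, whose Rel counts thus go against their label. It is not known which part of Rel was deleted, so reads from a remaining part cannot be told apart from an intact transcript. Rel-null lung 10 has a treatment label that names skin, while its title and source name lung, and it was kept with lung. Xist was read in wild-type lung 1 and wild-type skin 22 although the mice are described as male. A gap was a gene at 0 counts that averaged at least 5 CPM in the other libraries of its tissue. Of the members expressed at that level, 9 of 30 were gaps in Rel-null lung 7, against 11.5% of all genes expressed so, and 6 of 24 in wild-type skin 11, against 8.22%. Fibroblast markers were read in every culture, none at 0, and macrophage and leukocyte markers summed to 4888 to 26683 CPM in lung libraries and 52.6 to 175 CPM in skin libraries.

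Promoter sequences were read to show what the listed genes share in their DNA, a property that no expression value entered. RefSeq windows from 250 bases before to 50 bases after the start site on GRCm38.p6 were matched for 28 of the 38 members. The ISRE letters, GAAA, any 2 bases and GAAA again on either strand, were in the windows of 17 of those 28 members (60.7%) and in those of 3.99% of 27025 genes. The GAS letters TTCNNNGAA were in 7 of 28 against 9.55% of genes. The NF-kappaB letters searched, GGG, any 2 bases and TTTCC on either strand, were in 0 of 28, against 1.89% of genes. At so low a share, 0 of 28 does not set the members apart from all genes. Other forms of the NF-kappaB site were not searched. A match is a run of letters and does not show that a factor binds there. Isg15 held 3 matches, and Ifit1, Ifit3, Ifit3b, Oas1a, Bst2, Gbp3 and Irgm1 held 2 each. The bases just before the start sites of 5 of these genes and of Oasl1, which held none, are shown in lower case with ISRE matches, on either strand, in capitals. Isg15 was chosen because it held the most matches, Ifit1, Ifit3, Ifit3b and Oasl1 because 1 skin library differed most at genes like them, and Bst2 because its RNA differed between tissues.
Isg15 (chr4:156200819-156201018, minus strand): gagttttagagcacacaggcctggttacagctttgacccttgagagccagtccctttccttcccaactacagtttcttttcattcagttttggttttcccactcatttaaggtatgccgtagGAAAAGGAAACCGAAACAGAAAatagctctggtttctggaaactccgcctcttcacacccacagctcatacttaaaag
Ifit1 (chr19:34640769-34640888, plus strand): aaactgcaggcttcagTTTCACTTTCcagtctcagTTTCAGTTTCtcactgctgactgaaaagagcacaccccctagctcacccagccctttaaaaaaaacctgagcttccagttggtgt
Ifit3 (chr19:34583329-34583528, plus strand): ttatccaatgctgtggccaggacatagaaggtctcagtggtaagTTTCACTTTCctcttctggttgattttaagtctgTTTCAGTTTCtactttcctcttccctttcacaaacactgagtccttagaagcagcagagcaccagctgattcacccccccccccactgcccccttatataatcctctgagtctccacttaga
Ifit3b (chr19:34607757-34607956, plus strand): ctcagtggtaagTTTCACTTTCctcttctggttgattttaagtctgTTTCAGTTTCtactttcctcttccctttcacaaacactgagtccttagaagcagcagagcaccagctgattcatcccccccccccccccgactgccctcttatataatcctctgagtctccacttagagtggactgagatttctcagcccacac
Bst2 (chr8:71537473-71537672, minus strand): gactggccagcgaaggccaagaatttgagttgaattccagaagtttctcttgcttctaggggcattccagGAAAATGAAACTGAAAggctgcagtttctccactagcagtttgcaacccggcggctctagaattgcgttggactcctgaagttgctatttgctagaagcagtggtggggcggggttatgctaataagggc
Oasl1 (chr5:114923040-114923239, plus strand): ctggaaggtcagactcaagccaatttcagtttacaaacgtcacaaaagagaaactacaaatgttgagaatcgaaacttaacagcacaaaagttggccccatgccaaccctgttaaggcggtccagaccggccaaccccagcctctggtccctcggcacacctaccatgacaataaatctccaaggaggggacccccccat
The matches of Isg15 overlap one another, as do those of Bst2, in which a GAS match also shares 3 bases with an ISRE match. Ifit3 and Ifit3b, which lie beside each other on chromosome 19, had an identical run of 119 bases in the stretches shown. Their transcripts were alike too: 51.2% of the words of 50 bases in Ifit3 occurred in Ifit3b, so reads of the pair may have been assigned to either. The same holds for Oas1a, with 57.6% of its words shared, most of them with Oas1g. Exons of 7 members, among them Eif2ak2, Oasl1, Usp18 and Irf7, overlap a gene on the other strand, and those of 5, among them Irf9 with Rnf31, overlap a gene on the same strand. Whether the counting used strand is not given in the sources used here, so reads of such pairs may have been mixed. Neither window of Irf9 held ISRE letters, and both are not shown because they lie partly inside exons of a longer gene model.

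Levels per length, in CPM per kilobase of exon, put a pair of genes on top in lung. Ifi27, which encodes a small mitochondrial membrane protein, averaged 126 CPM per kilobase in wild-type and 109 in Rel-null cultures there. Bst2, the tetherin that holds budding virus particles on the cell surface, followed with 101 and 94.4. In skin Ifi27 also led, with 88.8 CPM per kilobase in wild-type and 77.0 in Rel-null cultures. Isg15 is a ubiquitin-like protein joined to other proteins during the response. It stood at 39.3 (wild type) and 13.3 (Rel-null) among lung cultures and at 8.67 and 27.1 among those of skin. Its wild-type lung mean was raised by library 4, at 70.1 CPM with the next at 24.3 CPM. Its Rel-null skin mean was raised by library 18, at 46.1 CPM against 5.79 and 9.62 CPM in 19 and 20. The antiviral GTPase Mx1 was near the bottom of the order, at 0.20 CPM per kilobase in wild-type lung and at 0 counts in every Rel-null skin library. With 3 counts over that group as the floor, a level of up to 0.0525 CPM is allowed there. Mx2, its neighbour in the genome, is annotated as a polymorphic pseudogene.

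**Figure D1:**
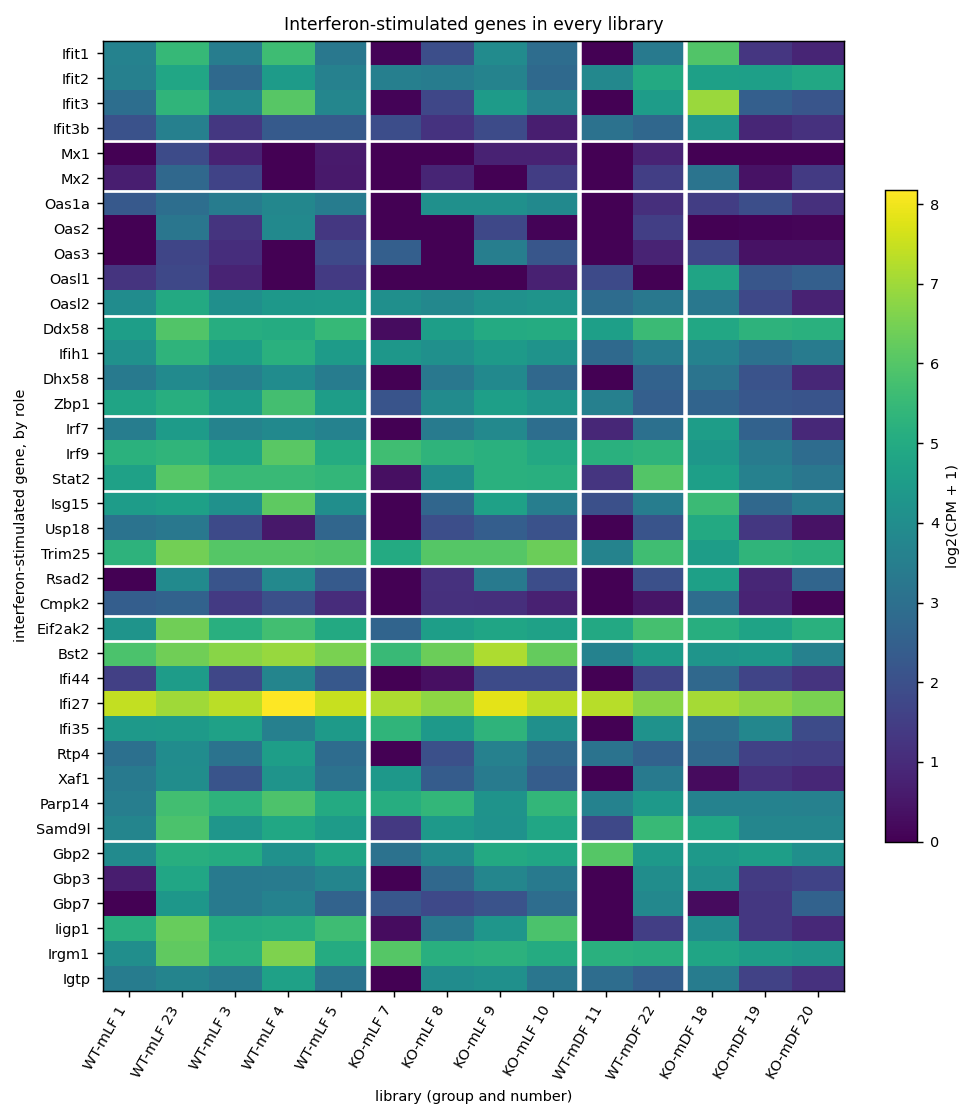
Level of each of the 38 interferon-stimulated genes (vertical axis, by role) in each of the 14 libraries (horizontal axis), coloured by log2(CPM + 1). WT and KO stand for wild type and Rel-null, mLF for lung and mDF for skin cultures. Rel-null lung 7 and wild-type skin 11 show the lowest colour at 15 and 16 members with 0 counts, and Rel-null skin 18 is above 19 and 20 at 26 members.

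Summed over the 38 genes, levels ran from 373 CPM in the library labelled Rel-null skin 20 to 1399 CPM in wild-type lung 4. Between these, wild-type lung 23 held 1307 CPM and the other wild-type lung libraries 653 to 864 CPM. Rel-null lung libraries held 502 to 986 CPM, wild-type skin 448 and 689 CPM, and Rel-null skin 18 held 855 CPM. The sums of the groups thus overlap within each tissue.

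The lung genotype comparison asked how the genes differ between cultures from Rel-null and wild-type mice. None of the 38 passed an adjusted p of 0.05 in edgeR's quasi-likelihood test, where 0.0% of 16408 genes were called in either direction. DESeq2 and limma-voom also called 0 members, with 51 and 6 genes called in all. Most members lay lower in Rel-null lung: 35 of 38 had a fitted value below 0, against 55.0% of all genes, 3 lay above 0, against 43.9%, and their median log2 fold change was -0.83 against -0.08 over all genes. At an unadjusted p under 0.05 there was 1 lower member, against 4.49% of all genes, and no higher member, against 1.83%. No member was higher or lower without overlap between the groups, against 0.993% and 1.3% of all genes. That direction is also what earlier results of these data showed, so it is no independent evidence.

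Eif2ak2, the kinase PKR that stops translation when it meets double-stranded RNA, had the smallest p. It was read at 17.7, 34.5, 51.3, 30.5 and 83.8 CPM in wild-type lung 1, 3, 4, 5 and 23, and at 5.21, 23.2, 27.2 and 24.4 CPM in Rel-null lung 7, 8, 9 and 10. The groups overlap only through wild-type lung 1. The log2 fold change was -1.08 ± 0.49 (SE), with an adjusted p of 0.781 from edgeR. Zbp1, a sensor of left-handed nucleic acid, fitted at -1.05 ± 0.57 (adjusted p = 0.809), and Ifi44, a cytoplasmic effector, at -2.51 ± 1.55 (adjusted p = 0.866).

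The IFIT proteins bind viral RNA that lacks a host cap, and all 4 had fitted values below 0 in lung, with a median of -1.46. Ifit3 was read at 6.74, 12.9, 65.6, 12.6 and 39.5 CPM in wild-type lung 1, 3, 4, 5 and 23, and at 0.0651, 2.35, 21.4 and 11.2 CPM in Rel-null lung 7, 8, 9 and 10. Ifit2 was read at 10.8, 5.91, 21.5, 11.0 and 27.6 CPM in the wild-type libraries and at 10.6, 9.83, 11.6 and 6.01 CPM in the Rel-null ones, in the same order. For both genes wild-type lung 4 and 23 were the highest of the 9 lung libraries and the other libraries of the groups overlapped.

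The Mx proteins trap viral nucleocapsids. Mx1 was read in 3 of 5 wild-type lung libraries, at up to 2.65 CPM, and in 2 of 4 Rel-null lung libraries, at up to 0.738 CPM. Mx2 reached 5.72 CPM in wild-type lung 23 and was at or below 2.13 CPM in the other lung libraries. The genotypes overlapped at both genes.

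The oligoadenylate synthetases make a messenger that activates RNase L, and the OASL proteins are relatives of theirs. Oasl2 was read at 14.7, 15.9, 19.5, 19.9 and 30.0 CPM in wild-type lung 1, 3, 4, 5 and 23, and at 15.9, 13.2, 16.8 and 17.8 CPM in Rel-null lung 7, 8, 9 and 10. Oas1a was read at 3.84, 9.84, 12.7, 9.82 and 6.83 CPM in the wild-type libraries and at 0, 16.4, 16.1 and 13.7 CPM in the Rel-null ones. For Oas1a the 3 Rel-null libraries with counts lay above all 5 wild-type ones and library 7 below them. Fitted values of the family were below 0 for 3 of 5 members and above 0 for 2.

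Ddx58 (RIG-I) and Ifih1 (MDA5) detect viral RNA in the cytoplasm. Ddx58 was read at 22.8, 33.5, 31.7, 43.9 and 61.4 CPM in wild-type lung 1, 3, 4, 5 and 23, and at 0.195, 23.2, 31.1 and 31.6 CPM in Rel-null lung 7, 8, 9 and 10. Ifih1 was read at 16.5, 22.5, 35.5, 21.3 and 38.9 CPM in the wild-type libraries and at 19.3, 16.1, 20.96 and 17.6 CPM in the Rel-null ones. Library 7 was nearly without Ddx58 but was within the wild-type range for Ifih1, and all 4 sensors had fitted values below 0 (median -0.76).

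Of the ISGF3 parts, Irf9 was read at 36.4, 26.6, 66.5, 31.5 and 39.5 CPM in wild-type lung 1, 3, 4, 5 and 23, and at 49.8, 38.6, 35.5 and 29.8 CPM in Rel-null lung 7, 8, 9 and 10. Stat2 was read at 24.7, 45.6, 46.0, 41.7 and 64.2 CPM in the wild-type libraries and at 0.260, 15.0, 35.8 and 34.7 CPM in the Rel-null ones. Irf9 was thus highest among Rel-null libraries in number 7, in which Stat2 was almost unread.

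Trim25, a ubiquitin ligase that acts on RIG-I, was read at 37.7, 64.0, 63.6, 61.1 and 85.0 CPM in wild-type lung 1, 3, 4, 5 and 23, and at 31.3, 64.3, 63.2 and 79.9 CPM in Rel-null lung 7, 8, 9 and 10. Isg15 was read at 22.1, 16.6, 70.1, 15.4 and 24.3 CPM in the wild-type libraries and at 0, 5.47, 24.3 and 10.4 CPM in the Rel-null ones. Its groups overlap through Rel-null lung 9, and its fitted value was -1.52 ± 1.05 (adjusted p = 0.908). Rsad2 (viperin) and Cmpk2, neighbouring genes of antiviral nucleotide chemistry, averaged 6.96 ± 6.40 and 2.99 ± 1.68 CPM in lung of wild type (SD, n = 5) and 3.32 ± 4.11 and 0.749 ± 0.551 CPM in Rel-null lung (n = 4).

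Among GTPases that act on membranes around microbes, Irgm1 was read at 15.4, 35.2, 96.2, 31.5 and 71.7 CPM in wild-type lung 1, 3, 4, 5 and 23, and at 63.6, 34.8, 37.1 and 31.9 CPM in Rel-null lung 7, 8, 9 and 10. Gbp2 was read at 14.2, 31.5, 16.4, 26.4 and 34.3 CPM in the wild-type libraries and at 7.55, 14.1, 29.9 and 27.3 CPM in the Rel-null ones. Both genes had overlapping groups, and all 6 GTPases had fitted values below 0 (median -0.53).

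**Figure D2:**
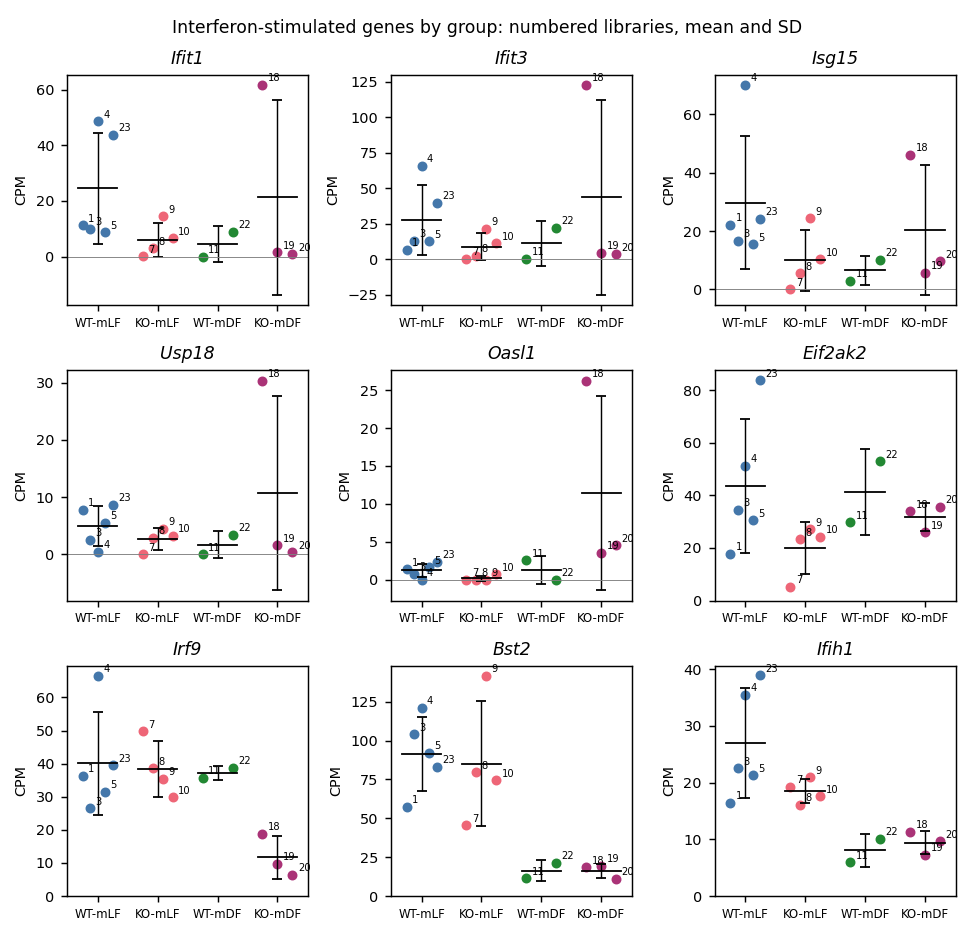
CPM (vertical axis) of 9 members by group (horizontal axis, WT wild type, KO Rel-null, mLF lung, mDF skin), with each library as a numbered point, the group mean as a long bar and its SD as an error bar. Wild-type lung 4 and 23 are the highest lung libraries for Ifit1, Ifit3, Eif2ak2 and Ifih1, and Bst2 is lower in both skin groups (11.1 to 21.4 CPM) than in any lung library (45.4 to 142 CPM).

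A few libraries set the height of the lung groups. Wild-type lung 23 or 4 was the highest of the 9 lung libraries at 33 of 38 members, against 34.1% of all genes tested. Both of them lay above the other 7 lung libraries at 17 members, against 10.5% of all genes. Rel-null lung 7 was the lowest lung library at 21 members (55.3%), against 22.6% of all genes. Without wild-type lung 23 the lung median was -0.48, without wild-type lung 4 it was -0.82 with 31 of 38 members below 0, without Rel-null lung 7 it was -0.56 with 32 of 38 members below 0, and without the 4 libraries with the most gaps (wild-type lung 4, Rel-null lung 7, wild-type skin 11 and Rel-null skin 18) it was -0.45 with 29 of 38 below 0. Without wild-type lung 1 and wild-type skin 22, the libraries with Xist reads, the lung median was -0.92 with 35 of 38 members below 0. Ddx58, Ifih1, Stat2 and Eif2ak2 were then lower without overlap, 4 members against 2.35% of all genes. None was higher, against 1.27%, and this count was chosen after seeing the data. Macrophage and leukocyte markers summed to 4888 to 21021 CPM in wild-type and 8586 to 26683 CPM in Rel-null lung. The part of these markers in the values of the members was not tested.

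In skin the genotype comparison set 3 Rel-null libraries, of which 19 and 20 carry Rel reads, against 2 wild-type ones. None of the 38 members passed the adjusted threshold in edgeR, where 0.0% of all genes were called. DESeq2 and limma-voom called 0 members as well, with 145 and 300 genes called in all. Fitted values were above 0 for 22 members and below 0 for 16, against 50.5% and 47.0% of all genes, with a median of 0.08 against 0.01. Oas1a and Oasl1 were higher in every Rel-null than in every wild-type skin library, against 13.7% of all genes, and Irf9 and Irgm1 lower, against 11.5%. Either way that is 5.26% of the members, a smaller share than among all genes.

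Irf9, the DNA-binding part of ISGF3, was the 1 member with an unadjusted p under 0.05, where 2.59% of all genes were lower and 3.65% higher. It was read at 35.6 and 38.7 CPM in wild-type skin 11 and 22, and at 18.9, 9.68 and 6.42 CPM in Rel-null skin 18, 19 and 20. The groups did not overlap. The log2 fold change was -1.61 ± 0.49, with an adjusted p of 0.521 from edgeR. Library 18, in which Rel was nearly absent, was nearer to wild type than 19 and 20 were.

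Next by p came Mx1 and Iigp1. Mx1 had no counts in Rel-null skin or in wild-type skin 11, and stood at 0.751 CPM in wild-type skin 22, so no fold is given. Iigp1, an immunity-related GTPase, was at 0 and 1.88 CPM in wild-type skin and at 14.8, 1.53 and 0.939 CPM in Rel-null skin 18, 19 and 20, with a fitted value of 3.401 ± 1.99 (adjusted p = 0.787). Irgm1 was at 35.2 and 34.2 CPM in wild-type skin and at 26.8, 22.4 and 19.5 CPM in Rel-null skin. Oasl1 was at 2.54 and 0 CPM in wild-type skin 11 and 22 and at 26.3, 3.57 and 4.54 CPM in Rel-null skin 18, 19 and 20.

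Within Rel-null skin, library 18 differed from 19 and 20 at many of the listed genes. It lay above both at 26 of 38 members (68.4%), against 31.7% of all genes, and below both at 5 (13.2%), against 48.0%. At 9 members (23.7%) it was over 5 times the higher of the others, against 2.82% of all genes. Counts of 18 against 19 and 20 compare 3 libraries, not conditions, and no test was made of them.

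Ifit1 was read at 61.7 CPM in library 18 (1771 counts), at 1.46 in 19 (23 counts) and at 0.782 in 20 (10 counts), a ratio of 42.2 to the higher of them. Ifit3 was read at 123, 4.52 and 3.44 CPM, a ratio of 27.1, and Ifit3b, its near copy, at 18.6, 0.828 and 1.25 CPM. Usp18, the protease that removes Isg15 from proteins and damps the receptor, was read at 30.4, 1.53 and 0.313 CPM. The remaining members over 5 times were Iigp1 (ratio 9.67), Cmpk2 (8.67), Gbp3 (7.62), Oas3 (7.34) and Oasl1 (5.79). Just under that line lay Igtp (4.84), Isg15 (4.79) and Mx2 (4.73).

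Other members differed less or the other way. Irf9 was above both but by a smaller ratio, at 18.9 CPM in library 18 against 9.68 and 6.42. Ifit2 was 24.2 CPM against 23.6 and 28.6, Bst2 18.4 CPM against 19.4 and 11.1, and Gbp7 0.174 CPM against 1.53 and 4.93. Of the 9 members over 5 times, 7 had a promoter window and 5 of these held ISRE letters, against 12 of 21 among the other members. Cxcl10, a chemokine that interferon raises and no member of the list, was named after its values were seen. It was at 42.0 CPM in library 18 and at 2.36 and 0.313 CPM in 19 and 20. Over 49 further interferon targets tested outside the list, mean log2 CPM ran from 1.60 to 2.12 in the Rel-null skin libraries. Over the members it ran from 1.47 to 3.21 there. As 1 gene named after its values were seen, Cxcl10 does not show that interferon targets outside the list were higher in library 18. Rel-null skin 18 also has 3.37% of expressed genes as gaps, against 0.0469% in 19 and 0.103% in 20, and its Rel level differs from theirs. How far each of these goes with the interferon genes was not tested.

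**Figure D3:**
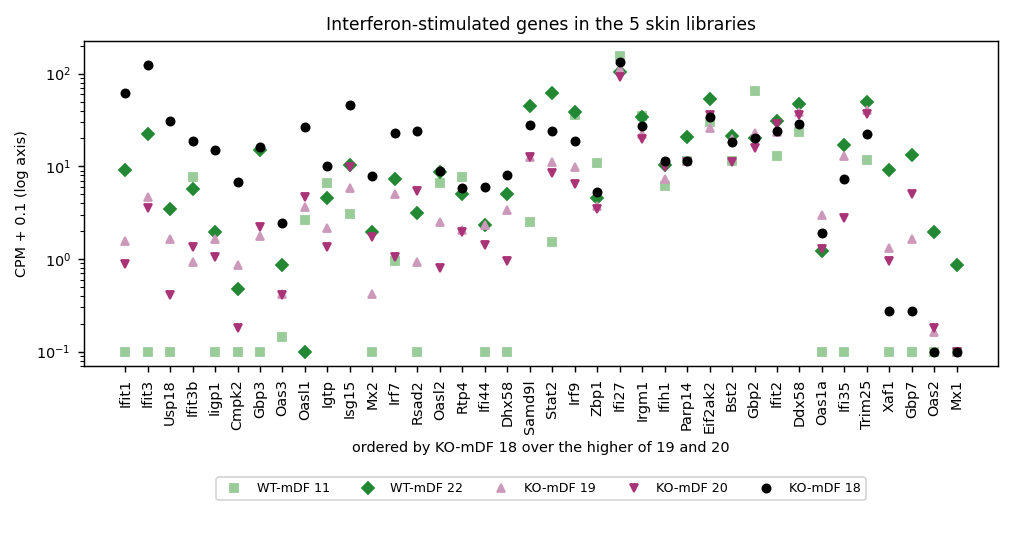
CPM plus 0.1 (vertical axis, log scale) of the 38 members (horizontal axis, ordered by the ratio of Rel-null skin 18 to the higher of 19 and 20) in the 5 skin libraries, 1 symbol per library, with KO-mDF for Rel-null and WT-mDF for wild-type skin. The 9 members over 5 times higher in 18 include Ifit1 (61.7 against 1.46 and 0.782 CPM) and Ifit3 (123 against 4.52 and 3.44 CPM).

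The wild-type skin libraries differed from each other as well. Wild-type skin 11 was the lowest skin library at 23 of 38 members (60.5%), against 28.5% of all genes, and had 16 members at 0 counts. Stat2 stood at 1.42 CPM in 11 and 62.3 CPM in 22, and Samd9l, an antiviral restriction factor, at 2.41 and 45.1 CPM. Gbp2 went the other way, at 64.3 and 20.3 CPM. The skin median therefore turned with the library left out. Without wild-type skin 22 it was 2.77, against 0.40 over all genes, with 27 members above 0. That fit rests on wild-type skin 11 as the only wild-type skin library, in which Ifi35 was a gap. Without Rel-null skin 18 the median was -0.35, against 0.07 over all genes, with 22 members below 0. It was -0.80 without the 4 libraries with the most gaps, which leaves 1 wild-type skin library. Keratinocyte markers summed to 12.4 to 29.6 CPM in wild-type and 487 to 1771 CPM in Rel-null skin, and their part was not tested.

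The difference between the genotype effects of skin and lung was tested as its own term. None of the 38 members passed in edgeR, with 0.0% of all genes called, nor in DESeq2 or limma-voom, which called 99 and 174 genes in all. The smallest p belonged to Irf9 (-1.52 ± 0.60, adjusted p = 1.00), followed by Cmpk2 (6.27 ± 3.19) and Iigp1 (4.47 ± 2.28), and 1 member passed unadjusted with a negative difference, where 1.35% of all genes did. Fitted differences were above 0 for 27 members and below 0 for 11, against 55.6% and 44.4% of all genes, and 0 members passed unadjusted above 0, against 3.32%. The median was 0.57 over the members and 0.14 over all genes. These values share the doubts on the skin libraries, and leaving out Rel-null skin 18 gave a median of 0.20. Leaving out wild-type skin 22, which leaves 1 wild-type skin library, gave 3.87, against 0.69 over all genes. Leaving out the 4 gap-rich libraries named above turned the median to -0.59, with 23 members below 0 and 15 above.

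Skin cultures read most of these genes lower than lung cultures did. In wild type, 34 of 38 members had a fitted value below 0 for skin minus lung, against 54.9% of all genes, and 4 above 0, against 44.7%. The median was -1.49 against -0.13. In 11 members every skin library was below every lung library, against 8.19% of all genes: Oas1a, Oasl2, Ifih1, Dhx58, Zbp1, Irf7, Isg15, Cmpk2, Bst2, Iigp1 and Igtp. In no member was every skin library above, against 10.8%. At an unadjusted p under 0.05, 7 members were lower, against 7.86% of all genes, and 0 higher, against 5.34%. Past the adjusted threshold 1 member fell, where 2.07% of all genes were called lower and 0.902% higher.

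That gene was Bst2. It was read at 57.4, 104, 121, 92.2 and 83.2 CPM in wild-type lung 1, 3, 4, 5 and 23, and at 11.4 and 21.4 CPM in wild-type skin 11 and 22. The groups were far apart. The log2 fold change was -2.70 ± 0.49, a 6.51-fold lower level, with an adjusted p of 0.00508. The call ended without wild-type skin 11 (-2.40, adjusted p = 0.0889) and under limma-voom (-3.01, adjusted p = 0.0737).

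Ifih1 followed at 5.98 and 10.1 CPM in wild-type skin, with a log2 fold change of -1.94 ± 0.57 and an adjusted p of 0.0936. Iigp1 was read at 35.1, 31.4, 33.3, 48.4 and 76.3 CPM in wild-type lung 1, 3, 4, 5 and 23 and at 0 and 1.88 CPM in skin, with -6.47 ± 2.15 (adjusted p = 0.146). Zbp1 fitted at -2.14 ± 0.79 and Trim25 at -1.29 ± 0.52, both unadjusted calls only. Leaving out Rel-null lung 7 raised the count of called members to 4, and that of all genes from 487 to 828. Rel-null lung 7 is in neither of the groups compared but enters the shared fit. The members called without Rel-null lung 7 were Bst2, Ifih1, Zbp1 and Iigp1. Leaving out wild-type skin 22 left wild-type skin 11 alone, which had 16 members at 0 counts and Ifi35 among its gaps. Fitted values were then -2.51 for Trim25, -11.8 for Ifi35 and -10.9 for Xaf1, and rest on that 1 skin library. The median over all genes moved to -0.81 in that fit. Without the 4 libraries with the most gaps, which leaves 1 wild-type skin library, 15 members were lower without overlap, against 18.5% of all genes, and Ifit2 was higher, against 39.1%.

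In Rel-null cultures the tissue comparison called 2 members lower in skin, where 3.23% of all genes were called lower and 1.82% higher. The median was -0.74 against -0.01 over all genes, with 24 members below 0 and 14 above, against 50.7% and 48.4%. Skin libraries lay below all lung libraries at 8 members, against 7.58% of all genes: Oasl2, Ifih1, Irf9, Bst2, Ifi35, Xaf1, Parp14 and Irgm1. They lay above at Ifit2 and Oasl1, against 13.3%. At an unadjusted p under 0.05, 8 members were lower and 2 higher, against 9.84% and 9.23% of all genes.

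Bst2 was read at 45.4, 79.6, 142 and 74.4 CPM in Rel-null lung 7, 8, 9 and 10, and at 18.4, 19.4 and 11.1 CPM in Rel-null skin 18, 19 and 20. The groups did not overlap, and the fall was -2.51 ± 0.41 in log2 fold change (adjusted p = 0.00161). With Rel-null skin 18 as the only skin library it was -2.32 with an adjusted p of 0.0989. Irf9, at 18.9, 9.68 and 6.42 CPM in skin against 29.8 to 49.8 CPM in lung, fell by 1.81 ± 0.43 on the log2 scale (adjusted p = 0.0220). Its call ended without Rel-null skin 19 (-1.70, adjusted p = 0.106), without 20 (-1.48, 0.132) and without Rel-null lung 8 (-1.78, 0.0557), and without 19 and 20 together (-1.11, 0.427), as well as with only the groups compared (-1.81, 0.0650).

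Parp14, an ADP-ribosyltransferase, came next at 33.3, 41.2, 17.2 and 41.5 CPM in Rel-null lung 7, 8, 9 and 10 and 11.3, 11.2 and 11.0 CPM in skin, with -1.69 ± 0.52 (adjusted p = 0.0747). Oasl1, which holds back Irf7 translation, had a fitted value of 5.89 ± 2.22 (adjusted p = 0.153) and was, with Ifit2 (1.31 ± 0.57, adjusted p = 0.220), 1 of the 2 members higher at an unadjusted p under 0.05. It had counts in 1 of 4 Rel-null lung libraries, number 10 with 0.673 CPM, and 3.57 to 26.3 CPM in skin. Mx1 was at least 6.95-fold lower in Rel-null skin than in Rel-null lung, with 0 counts set at a floor of 3 over the skin group against 32 counts in lung. Without Rel-null skin 18 the median was -1.34, with 32 members below 0 and 3 called, and without 19 and 20 it was -0.03 with 0 called.

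**Figure D4:**
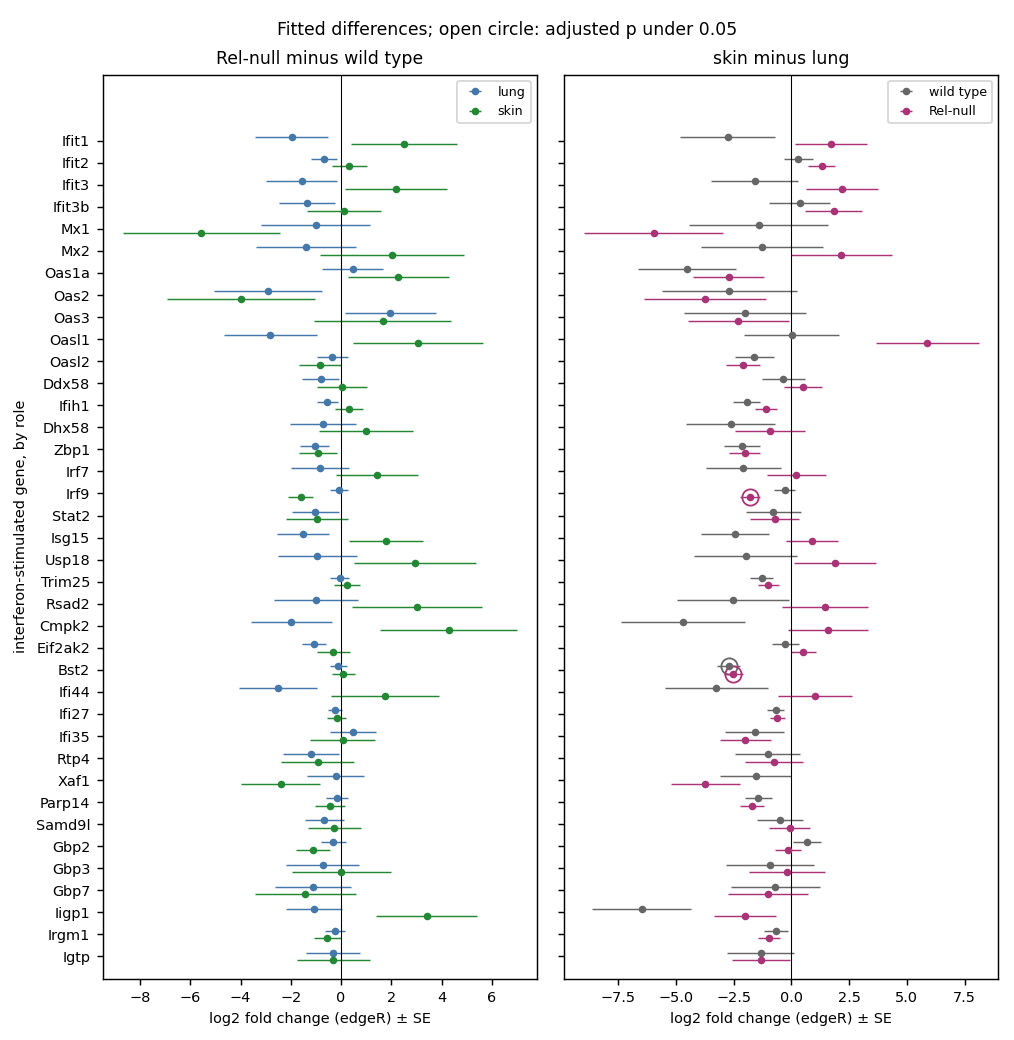
Log2 fold change from edgeR (horizontal axes, bars of 1 SE) of each member (vertical axis), Rel-null minus wild type on the left and skin minus lung on the right, with open circles at an adjusted p under 0.05. On the left 35 of 38 lung and 16 of 38 skin points lie below 0 and none is circled, and on the right Bst2 is circled in both genotypes and Irf9 in Rel-null cultures.

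Macrophage and leukocyte markers differed with tissue far more than the interferon genes did. All 14 were lower in skin in both genotypes, 13 of them past the threshold, with medians of -9.08 in wild type and -6.73 in Rel-null cultures. Their sums in skin were 52.6 to 121 CPM in wild-type and 128 to 175 CPM in Rel-null libraries, and Marco was at 0 in every Rel-null skin library. Bulk RNA cannot part fewer cells of a type from less RNA per cell, and the share of macrophages in the tissue difference of the members was not tested. Markers of T, NK and B cells summed to at most 1.02 CPM in any library, and those of plasmacytoid dendritic cells, the main makers of type I interferon in blood, to at most 11.6 CPM, with Siglech at 0 in all libraries. The lung epithelial list also holds Epcam and Cdh1, which are genes of epithelia at large. It summed to 9.76 to 166 CPM in lung, 1.88 to 4.86 CPM in wild-type skin and 187 to 442 CPM in Rel-null skin. Sftpc, Sftpb, Sftpa1 and Nkx2-1 were at 0 in both skin groups, so the skin sums come from other genes of the list and do not stand for lung epithelium. Endothelial markers summed to 3.74 to 78.6 CPM and mesothelial markers to 0.0430 to 222 CPM over all libraries, and the 8 fibroblast markers to 9470 to 129194 CPM.

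**Figure D5:**
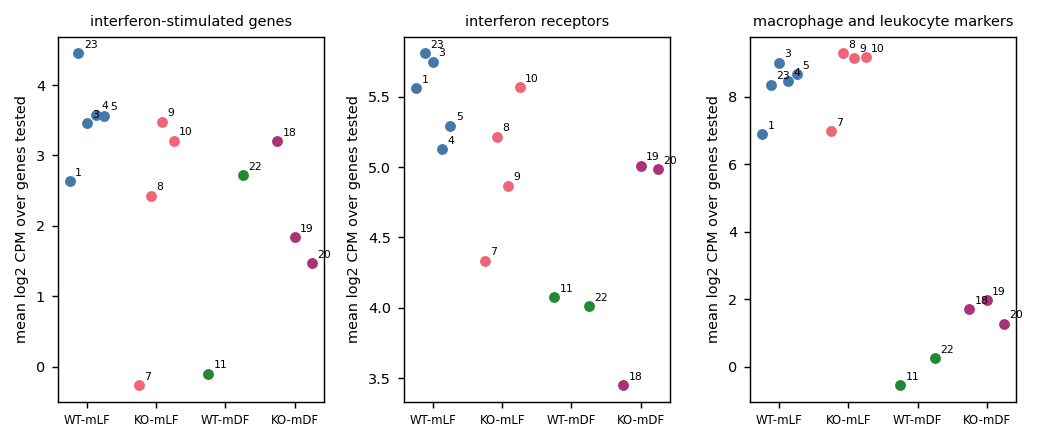
Mean log2 CPM (vertical axes) over the 38 members, the 6 interferon receptor chains and the 14 macrophage and leukocyte markers, for each numbered library by group (horizontal axes, WT wild type, KO Rel-null, mLF lung, mDF skin). Member scores are 2.63 to 4.45 in wild-type lung, -0.26 to 3.48 in Rel-null lung, -0.10 and 2.72 in wild-type skin and 1.47 to 3.21 in Rel-null skin, so the groups overlap.

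The rest of the pathway was read from 107 further genes, of which 86 were tested. Interferons themselves were all but unread: 18 of 20 interferon genes had no count among 284819342 in all 14 libraries. Ifnz had 12 counts, all in Rel-null lung 10, and Ifng had 2 counts, in the library labelled Rel-null skin 19. The genotype comparisons called 0 of 86 in lung, in skin and in the difference between them.

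All 6 receptor chains were tested. Per length, Ifngr1, the ligand-binding chain for interferon gamma, led in lung with 52.1 CPM per kilobase in wild type and 53.7 in Rel-null cultures. Ifnar1 and Ifnar2 averaged 139 ± 31.9 and 148 ± 36.0 CPM in wild-type lung (SD, n = 5), 127 ± 30.9 and 92.2 ± 39.7 CPM in Rel-null lung (n = 4), 76.9 ± 0.974 and 49.4 ± 33.2 CPM in wild-type skin (n = 2) and 71.8 ± 21.4 and 45.7 ± 10.5 CPM in Rel-null skin (n = 3). Neither passed in any comparison. Ifnlr1, the chain for interferon lambda, stayed at or below 1.27 CPM in lung and reached 4.62 CPM in Rel-null skin. Ifngr2 averaged 113 ± 26.4 CPM among wild-type lung libraries and 119 ± 14.2 CPM in Rel-null skin.

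Receptors were mostly lower in skin. In wild type all 6 fitted below 0 and Ifngr1 fell, at -1.48 ± 0.38 (adjusted p = 0.0469), a call that most other choices of libraries ended, with adjusted p values of 0.145 without wild-type skin 11 and 0.177 without number 22. In Rel-null cultures Il10rb, the chain shared by interferon lambda and interleukin 10 receptors, fell by 2.58 ± 0.53 on the log2 scale (adjusted p = 0.00855), from 57.8 ± 18.3 to 10.6 ± 7.45 CPM. That call ended without Rel-null skin 20 (adjusted p = 0.0513) and with only the groups compared (0.0516).

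Irf1, an interferon regulatory factor that is itself raised by interferon, was at 7.48 CPM in Rel-null lung 7 and at 28.9 to 43.5 CPM in the other lung libraries, and in skin at 44.6 CPM in Rel-null 18 and 7.90 to 28.2 CPM elsewhere.

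Between tissues, 6 of 86 pathway genes fell in wild-type skin and none rose, where 2.07% of all genes were called lower and 0.902% higher. Ptpn6, a phosphatase of blood cells, Irf8, an interferon regulatory factor of macrophages, and Socs3, a feedback inhibitor, changed by -8.96 ± 1.38, -8.86 ± 1.78 and -3.52 ± 0.82 (adjusted p = 0.00169, 0.0100 and 0.0275). Lgals9, a galectin, and Psmb8, a catalytic subunit of the immunoproteasome, changed by -1.96 ± 0.33 and -2.28 ± 0.49 (adjusted p = 0.00318 and 0.0158). Ifngr1 was the remaining one. Without wild-type skin 11 the calls of Ptpn6, Irf8, Socs3 and Ifngr1 ended, and without wild-type skin 22 those of Psmb8, Socs3 and Ifngr1. Under limma-voom all 6 calls ended, with adjusted p from 0.0608 for Lgals9 to 0.510 for Psmb8.

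In Rel-null cultures 8 of 86 pathway genes were called lower in skin, against 3.23% of all genes. Ptpn6 (-8.45), Psmb8 (-3.33), Irf8 (-7.89), Tlr7 (-6.11), Il10rb (-2.58) and Lgals9 (-1.18) fell, as did the GTPase Irgm2 (-1.995) and the schlafen Slfn2 (-2.45). Tlr7 is a sensor of single-stranded RNA in endosomes. Ptpn6, Irf8 and Tlr7 stood at or below 1.40 CPM in every Rel-null skin library, and the macrophage markers moved in the same direction in the same libraries. The call of Lgals9 ended without Rel-null skin 18 (adjusted p = 0.108) or 20 (0.0567), without Rel-null lung 9 (0.0569) or 10 (0.0510), without the 4 gap-rich libraries (0.0667) and with only the groups compared (0.0544). The call of Tlr7 ended without Rel-null skin 19 and 20 together (0.128), and those of Irgm2 and Slfn2 ended without any of several single libraries, among them Rel-null skin 19 (adjusted p = 0.119 and 0.165).

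Within lung, the pathway genes with small p between genotypes included Rnf213 (-0.82 ± 0.32), a large ubiquitin ligase, and Psmb8 (0.79 ± 0.34), each with an adjusted p of 0.781. Within skin they were Tlr7 (-3.85 ± 1.08, adjusted p = 0.458), Tnfaip3 (2.21 ± 0.82, adjusted p = 0.699), the A20 protein that limits NF-kappaB signals, and Gbp5 (-6.55 ± 2.70, adjusted p = 0.768). Tlr7 was 23.4 CPM in wild-type skin 11 and 0.375 CPM in 22, so its group value rests on 1 library. Tnfaip3 was at 19.9 and 6.76 CPM in wild-type skin 11 and 22 and at 36.0, 78.8 and 74.0 CPM in Rel-null skin 18, 19 and 20. For the difference between tissues Tlr7 (-4.39 ± 1.29) and Tnfaip3 (2.66 ± 0.98) were among the first, with adjusted p from 0.840 to 1.00.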

How the data were processed

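RNA of 14 fibroblast cultures was sequenced from directional libraries, per the labels' protocols. The authors deposited whole-number read counts per gene, unnormalised. Per the submitters' processing notes, FastQC 0.11.2, Trimmomatic 0.33 and STAR 2.4.2a were used with the GRCm38 build. No source used here gives the counting tool, its strand setting or its annotation.

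Gene names, coordinates and exon lengths came from GENCODE M21, in which 48435 of 48795 identifiers matched and 360 did not. CPM are counts scaled to the library total. Fold changes came from edgeR 4.0.16 in R 4.3.3, with TMM factors, genes kept by filterByExpr (minimum count 10, minimum total 15) and its quasi-likelihood test on 4 group means over all 14 libraries. P-values were adjusted by the Benjamini-Hochberg method over 16408 genes, with a threshold of 0.05, and SE is the log2 fold change over the root of F. The fit was tested on simulated data, but recovery of changed genes was required only at a spread below that of these data. The common dispersion, edgeR's measure of spread between libraries, was 0.948 here. That test therefore does not show how many true changes the fit would miss here. Promoter windows came from RefSeq on GRCm38.p6.

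Compared were the genotypes within each tissue, Rel-null minus wild type, these effects between the tissues, and skin minus lung within each genotype. Alternatives were DESeq2 1.42.0, limma-voom (limma 3.58.1), RLE factors, library totals alone, other filters, only the groups compared, and libraries left out singly or in sets. The limma-voom fit gave each library a quality weight, which lets outlying libraries count less. Replicate libraries differed by more than counting noise, so none was counted as a duplicate.

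The members, the pathway and marker lists and the alternatives were chosen with earlier results of these data known. Named were, per role, the 2 members of highest mean CPM, per comparison those past the threshold and the 3 of smallest p, members at 0 in a group, near-identical pairs, and of the pathway the called genes, the 3 of smallest p, interferons, receptors and Irf1, except that a few results under this rule are not reported here. Other genes were named after their values were seen: in Rel-null skin those over 5 times higher in library 18, the members just under that line and Cxcl10, Ifit2, Bst2 and Gbp7, and in wild-type skin Samd9l. No depth floor covers more than counting error, with 3 counts taken as the floor.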

Additional observations from a re-analysis of the deposited data

Results flagged for a closer look

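Of 78 checks for a single library far from the rest of its group, 9 found one. They used Dixon's gap rule in the lung groups of 4 and 5 libraries. Its rate of about 1 in 20 is for independent normal values. These genes were read in the same libraries and some lie near 0 CPM, so no excess over that rate is read. In wild-type lung 23, Ifit3b stood at 10.7 CPM with the next library at 4.03 CPM, and Mx1 at 2.65 CPM with the next at 0.710 CPM. In wild-type lung 4, Isg15 stood at 70.1 CPM with the next at 24.3 CPM and Igtp at 24.4 CPM with the next at 12.0 CPM, while Ifi35 was lowest there at 10.8 CPM with the next at 20.7 CPM. In Rel-null lung 7, Oas1a was at 0 CPM with the next library at 13.7 CPM, and Irgm1 was highest at 63.6 CPM with the next at 37.1 CPM. Oas2 stood at 2.39 CPM in Rel-null lung 9 with the next at 0.048 CPM, and Oasl1 at 0.673 CPM in Rel-null lung 10 with the others at 0.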

How the results depend on the processing

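No paired analysis was possible because the groups share no replicate numbers. In lung, 0 members were called under every alternative run. Leaving out 1 library gave medians of -1.03 (without Rel-null lung 9) to -0.48 (without wild-type lung 23), and leaving out the 4 libraries with the most gaps gave -0.45. In skin, leaving out 1 library gave medians of -0.35 to 2.77, and without wild-type lung 1 and wild-type skin 22 the median was 2.79. Leaving out 1 library while both wild-type skin libraries stayed called 0 members, beside 0 to 18 genes. For the difference of effects, leaving out 1 library gave medians of 0.20 to 3.87, and leaving out that pair gave 4.00. Leaving out 1 library while both wild-type skin libraries stayed called 0 members, beside 0 to 9 genes. The median was 1.99 with limma-voom, and leaving out the 4 libraries with the most gaps turned it to -0.59. In wild-type tissue, where 1 member and 487 of 16408 genes were called, leaving out 1 library gave medians of -3.81 to -1.04. While both wild-type skin libraries stayed, 1 to 4 members were called, beside 317 to 828 genes. The count there was 5 with DESeq2, beside 1220 genes in all, and 4 with limma-voom, beside 661 (median -2.61, Bst2 not among them). It was 2 with no low-count filter, beside 782 of 24046 genes, and 2 with only the groups compared, beside 439 of 15061. Fits with 1 wild-type skin library gave medians of -3.92 without that pair and -0.97 without the 4 libraries with the most gaps. In Rel-null tissue, where 2 were called, leaving out 1 library gave -1.34 to -0.20 and 1 to 3 called. The count there was 8 with DESeq2, 16 with limma-voom and 1 with only the groups compared. The genes called in all were 1770, 4501 and 825 in the same order, so calls rose over all genes and not only at the members. The median was -1.68 without the 4 libraries with the most gaps. It was -0.03 without the libraries labelled Rel-null skin 19 and 20, which leaves 1 Rel-null skin library. The cause was not tested, beyond the fewer libraries in some fits. The direction of an uncalled member changed in 23 fits in lung, 79 in skin, 87 for the difference, 23 in wild-type tissue and 44 in Rel-null tissue, and no called member reversed. Library totals alone moved the wild-type tissue median of all genes from -0.13 to 0.08 and that of the members to -1.26. Counts of members without overlap, taken without the doubted libraries, were chosen after seeing the data: in wild-type tissue 13 were lower without wild-type skin 11 and 21 without wild-type skin 22, against 13.2% and 24.0% of all genes. Depth limits skin most, with wild-type skin 22 at 2663437 counts and 2 wild-type libraries in all.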
